A study of Mus musculus with 32 samples.

Results

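Beta-casein, encoded by Csn2, is a major milk protein, and 3 of the 32 laser-captured regions of this mouse mammary tumour series held it at over 1000 CPM (the count divided by the column total, times 1000000). These 3 regions, hyperplasia 46, metastasis 42 and metastasis 58, were set against the other 9 hyperplasia and metastasis regions, 4 and 5 in number, with stage as a covariate. The other 20 regions (3 normal gland, 8 adenoma, 9 carcinoma) took no part in the choice and served as a separate look at the same genes. The members were chosen by their Csn2 level, so Csn2 is described and not tested.

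All regions, in both sets alike, came from females that carried MMTV-PyMT, R26-CBW and K8-CreERT2 together. The viral MMTV promoter drives the polyoma middle T oncogene in mammary epithelium, and K8-CreERT2 recombines the Confetti colour reporter in keratin 8 cells after 5 mg of tamoxifen at 5 weeks of age. Patches were cut from 7 µm sections once the tumours had reached their maximum allowed volume, and the age at that time was not given. The 12 compared regions each carry 1 colour label, while normal 28 and normal 30 are pools from different places. The series gives n = 3 without naming the unit, and ties no region to an animal. If this counts animals, the 12 regions compared share animals and are not independent. Every p-value over regions given here may then be too small or, where both sets share animals, too large. The high regions were hyperplasia 46, a GFP patch that was the one hyperplasia not surrounded by tumour, metastasis 42, an RFP patch in the lung centre, and metastasis 58, an RFP patch at the lung border. The other hyperplasia regions lay in the tumour core or at its border and carried GFP or RFP. The other metastases lay at the centre or the border of the lung and carried YFP, RFP or GFP.

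Milk proteins are made by alveolar luminal cells of the mammary gland. Prolactin acts through its receptor and the transcription factor STAT5 to switch on casein genes, and STAT5 binds DNA sites of the form TTCNNNGAA. The casein genes named here stand in a cluster on mouse chromosome 5. Full lactation also brings whey proteins, lactose synthesis, milk fat synthesis and a larger secretory pathway. Interferons act through other STAT proteins and IRF factors, which bind sites with a repeated GAAA, and raise the machinery that shows peptides on MHC class I molecules.

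The promoters of Csn2, Csn1s1 and Csn1s2a each hold a TTCNNNGAA match, and are shown because caseins define the regions. Each window runs from 250 bases before to 50 bases after the gene's start in RefSeq (GRCm38.p6), 5′ to 3′ on the gene's strand, with the match in capitals. The Csn2 window is at chr5:87699376-87699675 (minus strand), that of Csn1s1 at chr5:87665958-87666257 (plus strand) and that of Csn1s2a at chr5:87774200-87774499 (plus strand).
Csn2: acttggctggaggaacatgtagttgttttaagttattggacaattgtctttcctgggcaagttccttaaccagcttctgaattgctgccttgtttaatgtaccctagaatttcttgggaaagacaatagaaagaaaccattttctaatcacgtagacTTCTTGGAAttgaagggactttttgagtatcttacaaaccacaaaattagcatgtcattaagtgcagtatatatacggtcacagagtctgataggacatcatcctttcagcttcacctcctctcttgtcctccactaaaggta
Csn1s1: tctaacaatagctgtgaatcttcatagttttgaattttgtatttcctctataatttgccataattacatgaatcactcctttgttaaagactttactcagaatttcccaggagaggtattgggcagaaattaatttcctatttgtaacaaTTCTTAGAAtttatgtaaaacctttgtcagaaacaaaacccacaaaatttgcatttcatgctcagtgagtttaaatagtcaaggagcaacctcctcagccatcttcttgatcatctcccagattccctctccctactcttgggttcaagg
Csn1s2a: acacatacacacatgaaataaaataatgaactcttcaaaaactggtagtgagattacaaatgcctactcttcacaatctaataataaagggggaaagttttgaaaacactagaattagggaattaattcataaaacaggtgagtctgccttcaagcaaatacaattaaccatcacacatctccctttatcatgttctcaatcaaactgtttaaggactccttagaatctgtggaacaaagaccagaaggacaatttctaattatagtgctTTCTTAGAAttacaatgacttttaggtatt

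The first capital base lies 93 bases before the start in Csn2 and 100 bases before it in Csn1s1, and follows the start in Csn1s2a. TTCNNNGAA, which reads the same on both strands, was found in 8.3% of 32851 promoter windows of that length, and the windows of Wap and Lalba do not hold these letters. A match is a description of letters and not a binding site. Csn3 and Csn1s2b are named here without a window.

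Interferon-related genes are shown by 3 further windows, of B2m at chr2:122147437-122147736 (plus strand), Igtp at chr11:58199306-58199605 (plus strand) and Ifit3 at chr19:34583279-34583578 (plus strand), with GAAA, any 2 bases and GAAA again in capitals, or its reverse complement where the match is on the other strand.
B2m: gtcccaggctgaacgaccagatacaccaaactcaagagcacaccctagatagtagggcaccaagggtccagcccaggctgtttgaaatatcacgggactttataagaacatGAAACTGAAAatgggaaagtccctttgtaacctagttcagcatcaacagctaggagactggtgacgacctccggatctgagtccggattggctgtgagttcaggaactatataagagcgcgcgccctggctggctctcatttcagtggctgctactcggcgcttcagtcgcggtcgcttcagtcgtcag
Igtp: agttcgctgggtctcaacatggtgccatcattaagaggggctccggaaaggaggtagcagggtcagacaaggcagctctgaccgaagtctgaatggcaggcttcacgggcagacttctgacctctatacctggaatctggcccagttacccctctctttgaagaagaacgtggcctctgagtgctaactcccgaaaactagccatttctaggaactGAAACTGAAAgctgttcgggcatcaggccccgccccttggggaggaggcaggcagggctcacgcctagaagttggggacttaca
Ifit3: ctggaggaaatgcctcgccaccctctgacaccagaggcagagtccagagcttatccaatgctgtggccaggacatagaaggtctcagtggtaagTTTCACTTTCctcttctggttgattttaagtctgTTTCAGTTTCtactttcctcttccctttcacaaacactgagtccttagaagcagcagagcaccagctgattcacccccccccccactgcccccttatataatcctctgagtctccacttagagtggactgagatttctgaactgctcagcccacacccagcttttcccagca

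This spaced GAAA repeat was found on either strand in 3.44% of the 32851 windows, and Ifit3 holds it in 2 places. The 3 windows shown are among those that hold it, and the windows of H2-K1, H2-D1, H2-Q7, Psmb8, Psmb9 and Tap1 do not. None of the 3 casein windows holds the repeat, while that of Igtp also holds TTCNNNGAA elsewhere, without overlap. The windows of Psmb8 and Pigr hold TTCNNNGAA as well.

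Csn2 was at 7298 CPM in hyperplasia 46, 3256 CPM in metastasis 42 and 1458 CPM in metastasis 58, after scaling by edgeR's trimmed mean of M-values (TMM), the scale of all CPM values from here on. In the other 9 regions it ran from 0 to 3.12 CPM with a median of 0.185. On the unscaled CPM of the rule, the lowest region inside the threshold was metastasis 42 at 1809 CPM and the next region of these stages was hyperplasia 21 at 4.31 CPM. Across all 32 regions the next highest was carcinoma 08 at 38.2 CPM, so a threshold of 100 CPM picks the same 3 regions. No region lay between these levels.

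The library measures of both sets overlapped. They had total counts of 6458250 to 15226553 (other regions 5920501 to 15884714) and 10383 to 17517 detected genes (other regions 10258 to 16973). Exact permutation of the high label within stage (two-sided, 105 splits, smallest possible p 0.00952) gave p = 0.943 for total counts and p = 0.619 for detected genes. One gene ID without a name held 52.1% of the counts of metastasis 42, and 8.15% to 78.9% in the other 9 regions. Correlations of log2(CPM + 1) between pairs of high regions were 0.669 to 0.778, inside the range of 0.615 to 0.820 between high and other regions.

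Across 14373 autosomal genes other than Csn2, the edgeR quasi-likelihood test with Benjamini-Hochberg adjustment called 0 between high and other regions (0.0% called), with 888 genes at an unadjusted p under 0.05 and a smallest adjusted p of 0.101. The DESeq2 Wald test called 242 genes, 55 above 0 and 187 below. Limma voom with sample weights called 37, 36 above 0 and 1 below, so the calls of these tools ran mostly in opposite directions. Gene-wise spread between regions was wide (edgeR common dispersion 2.10). Below, a gene is said to lie above or below, and no single gene of the edgeR comparison is said to have changed. In that comparison 41.3% of genes had a log2 fold change above 0, with a median of -0.29, which ran from -0.70 to -0.34 when each high region was left out in turn. Ranges of list medians below are over the same 3 settings.

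Of 4 caseins other than Csn2, 3 lay above 0, with a median log2 fold change of 4.67 that was 0.73 without hyperplasia 46. They stood apart unevenly. Csn1s1, which encodes alpha-S1 casein at chr5:87666208-87682578 beside Csn2 at chr5:87692619-87699429, was at 4626 CPM in hyperplasia 46, 735 CPM in metastasis 42 and 551 CPM in metastasis 58. The other 9 regions had 0 to 158 CPM with a median of 9.01, so the sets did not overlap. Its log2 fold change was 6.97 ± 1.45 (SE, n = 3 against 9), with an adjusted p of 0.216 in edgeR, and 6.1e-05 in limma voom. Over the alternatives tried, the adjusted p of Csn1s1 ran from 9.25e-29 to 0.779, and without hyperplasia 46 its log2 fold change was 3.36.

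Csn1s2a, an alpha-S2 casein gene at chr5:87774450-87788798, was at 2222 CPM in hyperplasia 46, 71.6 CPM in metastasis 42 and 22.9 CPM in metastasis 58, against 0 to 36.8 CPM with a median of 0.718 in the other regions. Hyperplasia 46 was far above all others, while metastasis 58 was below the highest other region, metastasis 56. The log2 fold change was 8.22 ± 2.18, adjusted p = 0.597 in edgeR (3.27e-14 to 0.885 over the alternatives), and 2.37 without hyperplasia 46. Csn1s2b, the second alpha-S2 casein gene at chr5:87808121-87824421, was at 52.2, 0 and 0.474 CPM in the same order and at 0 to 8.90 CPM in the others, so only hyperplasia 46 stood out for it.

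Csn3, kappa-casein, which stabilises the casein micelle and stands at the other end of the cluster (chr5:87925579-87932550), did not follow. It was at 9336 CPM in hyperplasia 46, 4131 CPM in metastasis 42 and 4752 CPM in metastasis 58, against 3700.5 to 14944 CPM with a median of 7328 in the other regions. The sets overlapped fully, and the log2 fold change was -0.48 ± 0.38 (edgeR adjusted p = 0.854). Every region of these stages thus carried abundant kappa-casein RNA, whether or not beta-casein was there.

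**Figure D1:**
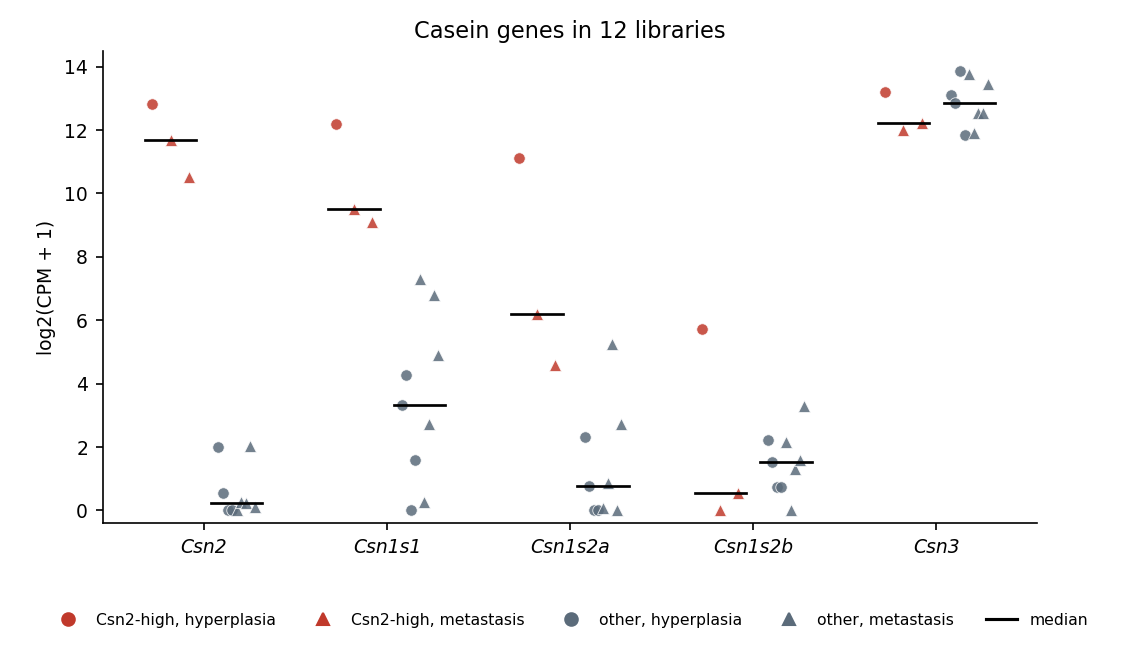
Casein genes as log2(CPM + 1) in 12 libraries, Csn2-high in red on the left of each pair and other regions in grey, with circles for hyperplasia, triangles for metastasis and a bar at the median. Csn2 and Csn1s1 separate the sets, Csn1s2a and Csn1s2b are highest in the hyperplasia of the high set, and Csn3 overlaps at 3700 CPM or more in every region.

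Whey proteins and other secreted milk proteins were mixed. Of the 11 tested members of that list 6 lay above 0, with a median log2 fold change of 0.33 (0.06 to 0.35) against -0.29 over all genes. All high regions were above all others for 1 of the 11, beside 0.647% of all genes. That gene was Pigr, the receptor that carries immunoglobulin A across epithelium into milk, at 623 CPM in hyperplasia 46, 579 CPM in metastasis 42 and 574 CPM in metastasis 58. The other 9 regions had 12.6 to 366 CPM with a median of 129. The high values were nearly equal in all 3 regions, with a log2 fold change of 1.96 ± 0.61 (edgeR adjusted p = 0.714). The adjusted p of Pigr was 0.00349 in limma voom, 0.197 in DESeq2 and 0.00349 to 0.968 over 28 alternatives, of which 1 was under 0.05.

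Lalba, the alpha-lactalbumin subunit of lactose synthase, was at 4446 CPM in hyperplasia 46, 3728 CPM in metastasis 42 and 1941 CPM in metastasis 58, against 1011 to 3684 CPM with a median of 1464 in the other regions. The difference was small beside that of the caseins (0.90 ± 0.37, unadjusted p = 0.0219, adjusted p = 0.752), and Lalba was abundant in every region. Wap, whey acidic protein, was at 859 CPM in hyperplasia 46, 135 CPM in metastasis 42 and 135 CPM in metastasis 58, against 0 to 303 CPM with a median of 70.5. Hyperplasia 46 was again the highest, and both high metastases were below the highest other region, metastasis 57 at 303 CPM. Without hyperplasia 46 the log2 fold change of Wap was 0.06, against 2.37 ± 1.17 with it. Glycam1, a mucin-like protein of late pregnancy and lactation, had no counts in hyperplasia 46 and metastasis 42 and was at 11.8 CPM in metastasis 58, against 0 to 2.24 CPM in the others.

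Milk sugar genes were above 0 in 9 of 11 tested, with a median of 0.90 that was 0.35 without hyperplasia 46 and 0.57 with library totals in place of TMM. B4galt1, the galactosyltransferase that joins with alpha-lactalbumin, was at 410.1, 480.0 and 130.5 CPM in hyperplasia 46, metastasis 42 and metastasis 58, and at 82.5 to 191 CPM in the others. The 2 highest were hyperplasia 46 and metastasis 42, and metastasis 58 lay within the other regions (log2 fold change 1.26 ± 0.48, adjusted p = 0.752).

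Genes of the milk fat globule lay above 0 in 4 of 11, with a median of -0.23 (-0.32 to -0.05). Xdh and Btn1a1, which help coat the milk fat droplet, were at 35.5, 228 and 64.4 CPM and at 14.8, 104 and 47.2 CPM in the high regions in the same order, against 23.6 to 91.03 CPM and 4.86 to 148 CPM in the others, and both overlapped. Mfge8, the milk fat globule protein lactadherin, gave -0.01 ± 0.44. Muc1, an apical mucin that also coats the droplet, was at 221, 108 and 58.9 CPM against 1.93 to 115 CPM, with an unadjusted p of 0.0339 and an edgeR adjusted p of 0.752.

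Fatty acid and triglyceride genes lay above 0 in 15 of 23 with a median of 0.33 (0.22 to 0.37). Acaca, which makes malonyl-CoA for fatty acid synthesis, was at 37.95, 613 and 137 CPM against 15.2 to 92.1 CPM and overlapped the other regions through hyperplasia 46. Fasn, fatty acid synthase, was at 970.4, 859 and 286 CPM against 191 to 1024 CPM. Sterol synthesis genes lay above 0 in 15 of 20 (median 0.38, and 0.02 without hyperplasia 46 and 0.72 without metastasis 42). Milk transport genes lay above 0 in 12 of 21 (median 0.33, and -0.34 without metastasis 58), and secretory pathway and unfolded protein response genes in 22 of 35 (median 0.32, and 0.10 without metastasis 58). None of these lists had a member with all 3 high regions above all others.

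Regulators of the lactation signal were mixed. Of 24 tested genes of the prolactin receptor and STAT5 axis 10 lay above 0, with a median of -0.12 (-0.68 to -0.24). Prlr, the prolactin receptor, was at 206, 324 and 80.9 CPM in the high regions against 4.43 to 159.6 CPM. Stat5a was at 77.8, 1.39 and 72.1 CPM against 19.62 to 293 CPM, and Elf5, a transcription factor of alveolar cells, at 193, 519 and 217 CPM against 181 to 651 CPM. Both sets overlapped for each of the 3 genes. Cish, a STAT5 target that damps cytokine signals, gave -0.14 ± 1.01.

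In total 3 genes of this list lay below in every high region, beside 0.438% of all genes tested, and the same 3 had an unadjusted p under 0.05 below 0, beside 3.46%. Gata3, a transcription factor of luminal identity, was at 260.0, 203 and 136 CPM against 284 to 734 CPM with a median of 384 (log2 fold change -1.09 ± 0.47, adjusted p = 0.752). Foxp1, a forkhead factor, was at 1.68, 9.47 and 3.89 CPM against 18.5 to 236 CPM with a median of 49.7. Its log2 fold change was -3.87 ± 1.12, with an adjusted p of 0.641 in edgeR, 0.00154 in DESeq2 and 0.77 in limma voom. Nr3c1, the glucocorticoid receptor, was at 0 CPM in metastasis 42 and at most 23.6 CPM in the other 2 high regions, against 37.8 to 269.7 CPM with a median of 76.1 (-2.81 ± 1.10, adjusted p = 0.752). The high values of Foxp1 were all under 10 CPM.

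**Figure D2:**
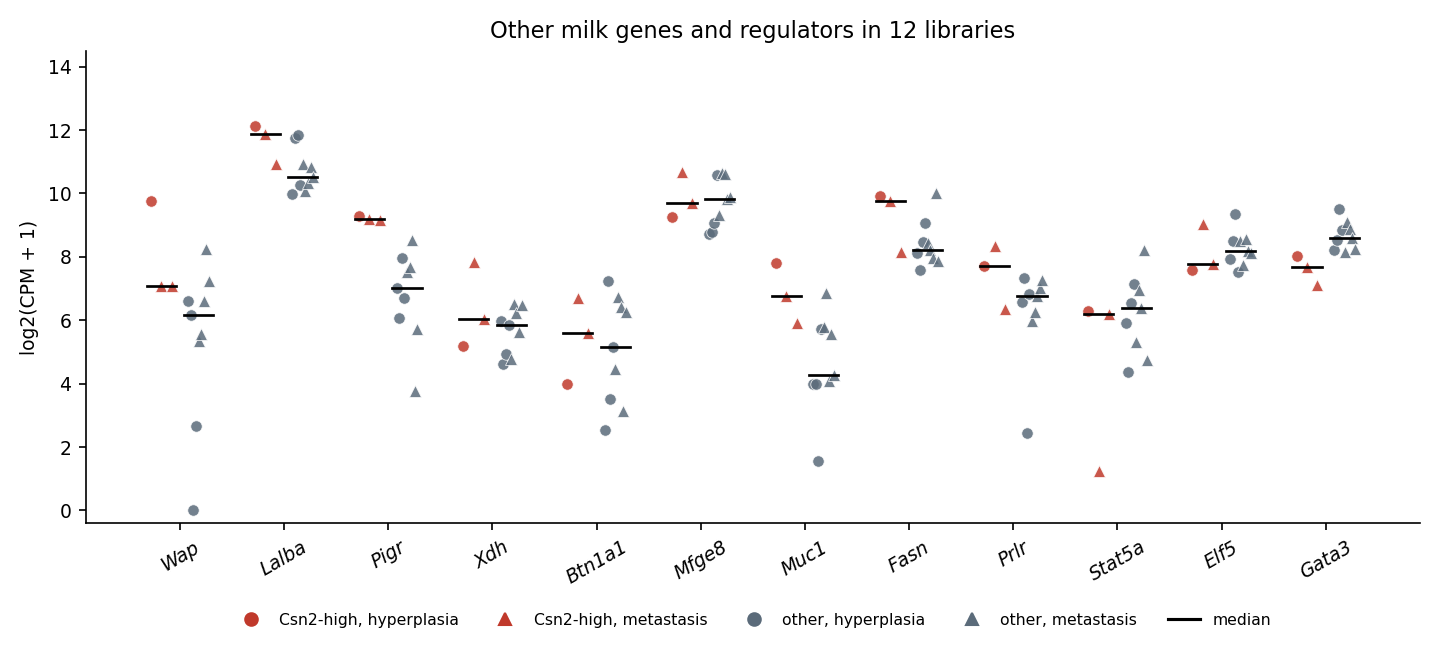
Other milk genes and regulators as log2(CPM + 1) in 12 libraries, drawn as for the caseins. Pigr separates the sets upward and Gata3 downward, and the other genes shown overlap.

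Interferon response genes lay above 0 almost throughout. Of 26 interferon response genes 25 lay above 0, with a median log2 fold change of 2.50 against -0.29 over all genes. At an unadjusted p under 0.05, 12 lay above, beside 2.72% of all genes, and 7 had all high regions above all others, beside 0.647%. Because this list was chosen with earlier results of these data known, its shares are a description and not a test. The mean log2(CPM + 1) of the list was 5.09, 6.36 and 6.96 in hyperplasia 46, metastasis 42 and metastasis 58, against 2.07 to 4.39 in the other 9. The sets did not overlap, and the median log2 fold change of the list was 2.52, 2.66 and 2.41 without each high region in turn.

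Antigen presentation on MHC class I stood out in level as well. H2-K1, a classical class I heavy chain at chr17:33996012-34000619, was at 2926 CPM in hyperplasia 46, 2882 CPM in metastasis 42 and 2419.9 CPM in metastasis 58. In the other 9 regions H2-K1 was at 317 to 1172 CPM with a median of 589.9. Its log2 fold change was 2.04 ± 0.38, adjusted p = 0.131 in edgeR, 2.24e-07 in limma voom and 0.0138 in DESeq2. All 28 alternatives kept the direction, with log2 fold changes of 1.87 to 2.25 when each region was left out in turn and adjusted p from 2.24e-07 to 0.836.

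B2m, the light chain that all class I molecules share (chr2:122147687-122153082), was at 2210.3 CPM in hyperplasia 46, 2809 CPM in metastasis 42 and 2465 CPM in metastasis 58. The other regions were at 127 to 1267 CPM with a median of 391. The high regions were close to each other, at 2495 ± 300.3 CPM against 501 ± 357 CPM (SD, n = 3 and 9), and the log2 fold change was 2.29 ± 0.45 (edgeR adjusted p = 0.188, 7.57e-07 to 0.821 over the alternatives).

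H2-D1, a second classical heavy chain, was at 2244 CPM in hyperplasia 46, 2069 CPM in metastasis 42 and 1315 CPM in metastasis 58, against 309 to 1002 CPM with a median of 469.8. H2-Q7, a non-classical class I gene, was at 255 CPM in hyperplasia 46, 204 CPM in metastasis 42 and 103 CPM in metastasis 58, against 0 to 23.1 CPM with a median of 7.16. Both had all high regions above all others. H2-Q9, a near-identical gene, had the same CPM as H2-Q7 in all 12 compared regions, so the pair counts as 1 measurement there, and sharing of reads among class I genes makes the value of each uncertain.

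Psmb8, a subunit of the immunoproteasome that cuts peptides for class I molecules, was at 566 CPM in hyperplasia 46, 462 CPM in metastasis 42 and 649 CPM in metastasis 58, against 23.6 to 299.5 CPM with a median of 83.5 (2.61 ± 0.54, adjusted p = 0.216). Its partner Psmb9 was at 42.1, 72.4 and 74.01 CPM against 0 to 33.1 CPM with a median of 8.96. The peptide transporter subunit Tap2 was at 29.8, 24.2 and 31.5 CPM against 0 to 14.8 CPM with a median of 0.478, while its partner Tap1, at 116, 138 and 269.9 CPM against 9.14 to 196 CPM, overlapped. Nlrc5, the activator of class I genes, was at 112, 72.4 and 45.9 CPM against 0 to 50.2 CPM and overlapped through hyperplasia 33.

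A list of MHC class I genes drawn up after values were seen had 25 of 27 tested members above 0, with a median of 1.36, beside 41.3% of all genes above 0. All high regions were above all others for 8 of the 27, beside 0.647% of all genes. Because the list was drawn up after values were seen, its shares are a description and not a test. Its summed level was 10297, 10878 and 8927 CPM in hyperplasia 46, metastasis 42 and metastasis 58, against 2186 to 4980.0 CPM in the others. Tapbp and Calr, the chaperones that load class I molecules, lay at 0.03 ± 0.51 and 0.02 ± 0.42. Both overlapped between the sets.

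Interferon-induced GTPases, also listed after values were seen, had 15 of 15 tested members above 0, with a median of 3.50, beside 41.3% of all genes above 0. All high regions were above all others for 6 of the 15, beside 0.647% of all genes. For this list too the shares are a description and not a test. Igtp, a GTPase that acts against intracellular parasites, was at 516 CPM in hyperplasia 46, 13.4 CPM in metastasis 42 and 116 CPM in metastasis 58, against 0.185 to 27.9 CPM with a median of 4.90. Metastasis 42 lay within the other regions for Igtp. Ifi47 was at 130.5, 164 and 133 CPM against 0 to 51.01 CPM with a median of 8.96, and Gbp4 at 163, 54.9 and 46.5 CPM against 0 to 39.2 CPM with a median of 3.92, with no overlap in either.

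Individual interferon genes did not all appear in the same regions. Ifit3, which binds foreign RNA complexes and had the smallest adjusted p of the comparison (0.101), was at 0 CPM in hyperplasia 46, 578 CPM in metastasis 42 and 136 CPM in metastasis 58, against 0 to 2.24 CPM with a median of 0. It was thus present in both high metastases and had no counts in the high hyperplasia. Ifit3 had 3508 counts over the high regions and 31 over the others, of which 5 were at 0. It passed the filter mainly through the high metastases, which all but fixed its sign. Its p and its place among the interferon genes above 0 are therefore a description. Ifit2, its relative, was at 83.1, 0.557 and 119 CPM against 0 to 11.02 CPM, and nearly absent from metastasis 42. Oas2, a sensor of double-stranded RNA, was at 123 CPM in hyperplasia 46, 1016 CPM in metastasis 42 and 445 CPM in metastasis 58, against 0 to 104 CPM with a median of 3.45, and did not overlap.

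The 3 interferon and class I lists together held 66 tested genes, of which 19 had all high regions above all others. Over all autosomal genes 93 did so (0.647%), so the lists account for 19 of 93. Both of the lists drawn up after values were seen are among the 3, so these counts are a description and not a test. Of 14373 autosomal genes tested, limma voom called 37, of which 20 are among the 66 on the lists. DESeq2 called 242 of the 14373, of which 7 are on the lists. In limma voom Csn1s1, Csn1s2a, Pigr and Ifitm3, an interferon-induced membrane protein, were called beside the genes of the lists.

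**Figure D3:**
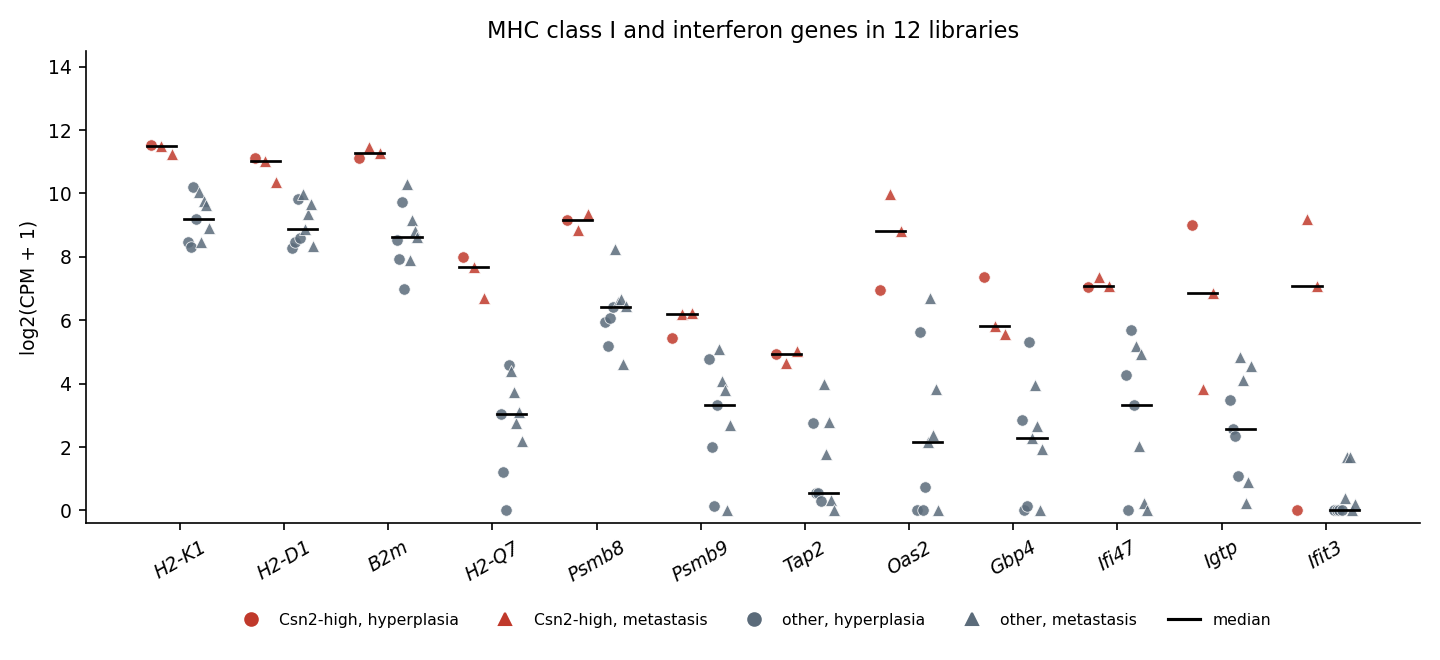
MHC class I and interferon genes as log2(CPM + 1) in 12 libraries, drawn as for the caseins. H2-K1, H2-D1, B2m, H2-Q7, Psmb8, Psmb9, Tap2, Oas2, Gbp4 and Ifi47 separate the sets, Igtp overlaps through metastasis 42, and Ifit3 is at 0 in hyperplasia 46.

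Markers of immune cells were low but not equal. Cd3e, a T cell receptor chain, had 69 counts in hyperplasia 46, 18 in metastasis 42 and 14 in metastasis 58, against 1 count over all 9 other regions. Cd3d and Cd3g had no counts in hyperplasia 46 and metastasis 42, and Cd8a had 233 counts in metastasis 42 and none in the other 2 high regions. Counts summed over the high and the other regions were 40 and 5 for Cd3d and 233 and 4 for Cd8a. They were 14 and 34 for Cd3g and 2 and 64 for Cd4, the other way round. Only 4 of the 15 T, NK and B cell genes in the file passed the filter, 3 of them above 0. Cd3e passed only through its counts in the high regions, which fixed its sign, so this count says nothing about lymphocytes. The summed level of the list was 25.6, 114 and 11.7 CPM in the high regions and 0.177 to 408 CPM in the others, with Cd79a and Cd79b at 0 in all high regions.

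Macrophage genes lay above 0 in 9 of 20, and summed to 529, 1102 and 324 CPM in the high regions against 271 to 2070.0 CPM in the others. In these bulk captures fewer cells of a type and less RNA per cell cannot be told apart. The part of immune cells in the interferon values was not tested.

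Epithelial markers did not separate the sets. Krt8 was at 646, 703 and 466 CPM in the high regions against 458 to 1009.6 CPM, Krt18 at 741, 285 and 255 CPM against 309 to 919.5 CPM and Cdh1 at 73.5, 239 and 153 CPM against 71.5 to 222 CPM. Luminal keratin and junction genes lay above 0 in 8 of 21 (median -0.10, -0.35 to -0.07) and alveolar and luminal progenitor genes in 4 of 14 (median -0.60, -1.72 to -0.33). Hormone-sensing luminal genes lay above 0 in 4 of 9 (median -0.67, and 0.07 without metastasis 42), of which Foxa1 had no counts in any high region. Basal and myoepithelial genes lay above 0 in 6 of 15 (median -0.49, and 0.22 without hyperplasia 46).

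Lung genes were found in the metastases of both sets. Sftpc, a surfactant protein of lung alveolar cells, was at 427 and 229 CPM in metastasis 42 and metastasis 58, against 369 to 3635 CPM in the other 5 metastases, and at 0 to 0.114 CPM in every hyperplasia. The lung epithelium list summed to 879.9, 1419.7 and 666 CPM in hyperplasia 46, metastasis 42 and metastasis 58, against 537 to 5372 CPM in the others. In the other hyperplasia regions alone the sum was 537 to 1023 CPM, so it does not measure lung content alone. Red blood cell genes lay above 0 in 0 of 5 tested genes (median -2.57) and summed to 99.1, 1304 and 802 CPM against 46.4 to 19165 CPM. Their part in the other differences was not tested.

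Proliferation genes were mixed. Of 39 G2 and mitosis genes 27 lay above 0 (median 0.39, 0.21 to 0.56), 3 of them at an unadjusted p under 0.05, beside 2.72% of all genes. Of 37 S phase genes 21 lay above 0 (median 0.24), and the median turned to -0.10 without hyperplasia 46 and -0.12 without metastasis 58. Mki67, the proliferation marker, was at 332, 253 and 146 CPM against 28.5 to 180.3 CPM (1.20 ± 0.52, adjusted p = 0.752). Hmmr, a spindle protein, was at 238, 111 and 55.6 CPM against 0 to 47.8 CPM with a median of 22.5, with no overlap. Top2a, the topoisomerase of dividing cells, gave -0.35 ± 0.62, below 0.

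The remaining lists are given by counts and medians. Fibroblast and matrix genes lay above 0 in 4 of 19 (median -0.70, -1.63 to -0.53) and neutrophil genes in 4 of 8 (-0.36, -0.84 to -0.07). Some medians changed sign with 1 region left out. Adipocyte genes lay above 0 in 3 of 8 (-0.68, and 0.11 without hyperplasia 46), endothelial genes in 8 of 14 (0.29, and -1.33 without metastasis 42 and -0.16 without metastasis 58), and mammary involution genes in 12 of 23 (0.08, and -0.25 without metastasis 42 and -0.09 without metastasis 58). Immediate early and heat shock genes lay above 0 in 6 of 21 (-0.37, -1.10 to -0.50), cytosolic ribosomal protein genes in 14 of 42 (-0.17, -0.27 to -0.13) and nuclear oxidative phosphorylation genes in 7 of 28 (-0.25, -0.60 to -0.12).

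**Figure D4:**
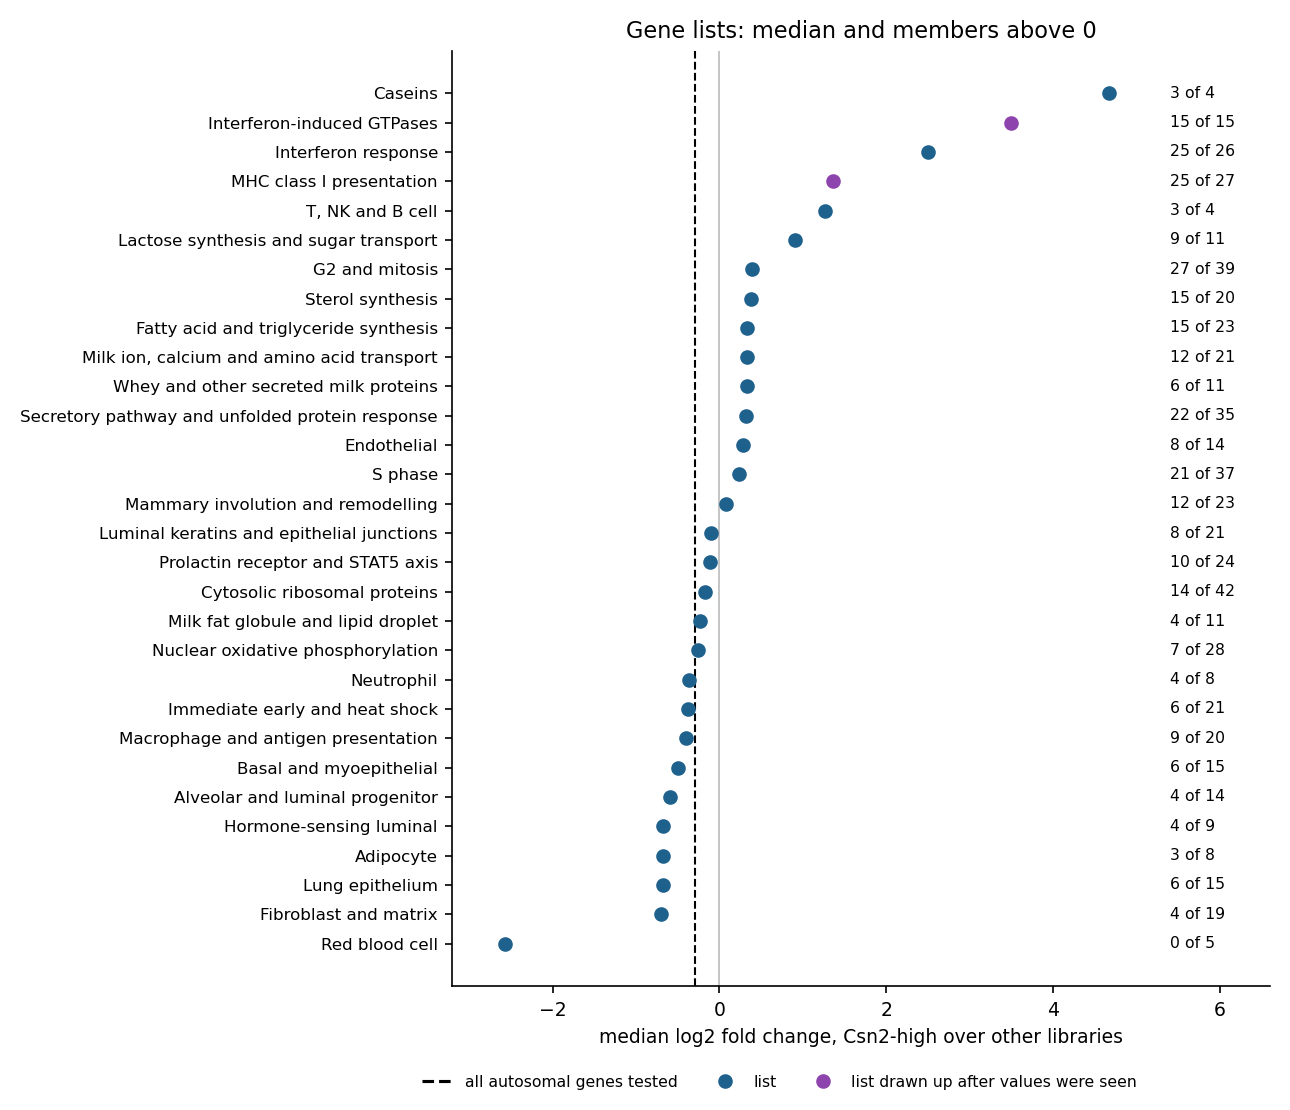
Median log2 fold change of each gene list, Csn2-high over other libraries, with the number of tested members above 0 at the right and the median of all autosomal genes (-0.29) as a dashed line. Caseins, interferon-induced GTPases, interferon response and MHC class I presentation lie farthest to the right, and red blood cell genes farthest to the left. The GTPase and MHC class I lists were drawn up after values were seen.

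Outside the lists, the genes of smallest p above 0 included Apol9a, an apolipoprotein L gene, at 63.1, 62.7 and 188 CPM against 0 to 10.4 CPM with a median of 2.96, and Morc3, a nuclear ATPase, at 293, 108 and 29.4 CPM against 2.04 to 29.3 CPM with a median of 7.69. Cab39, a partner of the kinase LKB1, was at 551, 211 and 61.5 CPM against 3.99 to 66.2 CPM with a median of 48.7, where metastasis 58 lay below the highest other region. D630045J12Rik was at 45.1, 846 and 89.6 CPM against 0 to 32.3 CPM with a median of 5.92. 4930522H14Rik was at 12.3, 411 and 0.948 CPM against 0 to 9.33 CPM and was far higher in metastasis 42 than in any other region. Adjusted p for these genes ran from 0.262 to 0.597.

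Below, Igfbp5, an insulin-like growth factor binding protein that rises in the involuting gland, was at 2375 CPM in hyperplasia 46, 2277 CPM in metastasis 42 and 1727 CPM in metastasis 58, against 2340.1 to 10942 CPM with a median of 5417. The high regions were all at the low end, and hyperplasia 21 and hyperplasia 33 reached the same level (-1.51 ± 0.42, adjusted p = 0.613 in edgeR, 0.163 in DESeq2 and 0.0257 in limma voom, where it was the one gene called below). Of 28 alternatives 2 gave Igfbp5 an adjusted p under 0.05. Anpep, aminopeptidase N, was at 9.26, 34.3 and 27.7 CPM against 52.6 to 199 CPM with a median of 99.4, and Il17re, a receptor chain for interleukin 17C, at 17.8, 15.3 and 16.6 CPM against 43.7 to 395 CPM with a median of 71.1. Neither overlapped.

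Plekhg5, a guanine nucleotide exchange factor, had 3, 0 and 2 counts in hyperplasia 46, metastasis 42 and metastasis 58, and was at 0.434 to 82.2 CPM in the others. The transcription factors Casz1 and Foxn3 were at 4.59, 1.95 and 2.56 CPM and 2.75, 0 and 0.948 CPM in the high regions, against 7.98 to 88.6 CPM and 5.54 to 97.6 CPM. Cacnb4, a calcium channel subunit, was at 0.765, 0 and 3.03 CPM against 4.12 to 189.7 CPM. These 4 genes did not overlap. Padi2, a peptidylarginine deiminase, S100a16, a calcium-binding protein, Vkorc1, the vitamin K reductase, and Pnisr, a splicing-related protein, had log2 fold changes of -4.23 ± 1.12, -3.07 ± 0.85, -2.77 ± 0.83 and -1.98 ± 0.61 and overlapped. Adjusted p for the named genes below ran from 0.597 to 0.714, and 63 genes (0.438%) had all high regions below all others.

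Whether the difference was alike in both stages was tested as an interaction in edgeR, in which the 1 high hyperplasia is assumed to vary like the other regions. Of 19241 autosomal genes 2 were called (0.0104%), both with a lower effect in metastasis, and 928 had an unadjusted p under 0.05. Wfdc18, a whey acidic protein relative secreted by mammary epithelium, was at 12101 CPM in hyperplasia 46 against 2745 to 9097 CPM in the other hyperplasia regions. In metastasis 42 and metastasis 58 it was at 1537 and 1714 CPM against 5119.5 to 19171 CPM in the other metastases. The high region was thus above all others in hyperplasia and below all others in metastasis, with a log2 difference of -4.19 ± 0.54 (adjusted p = 1.39e-06).

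The second gene was Scgb2b27, a secretoglobin, at 497 CPM in hyperplasia 46 against 138 to 3339.5 CPM in the other hyperplasia regions. It had 1 count in metastasis 42 and 6 in metastasis 58, against 0 to 781 CPM in the other metastases. The log2 difference was -8.49 ± 1.71 (adjusted p = 0.0287), and metastasis 57 of the other set was at 0 as well. Without metastasis 42 the adjusted p was 0.0593 for Wfdc18 and 1 for Scgb2b27, and without metastasis 58 it was 0.0517 and 0.403. The interaction of Csn1s1 was -5.93 ± 1.57 and that of Csn1s2a -8.41 ± 2.05, with edgeR adjusted p of 0.397 and 0.225.

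The 20 normal, adenoma and carcinoma regions were fitted separately. Their Csn2 ran from 0 to 40.1 CPM, highest in carcinoma 39, carcinoma 08 and carcinoma 37. The edgeR slope on log2(Csn2 CPM + 1), with stage as covariate, called 1 of 17544 autosomal genes (0.0057%), with 661 at an unadjusted p under 0.05. That gene was A530046M15Rik, with a slope of 3.02 ± 0.49 (adjusted p = 0.038), at 0 in 16 of the 20 regions. The call was lost in 13 of the 22 alternatives that tested it.

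Per unit of log2(Csn2 CPM + 1) there, the slope was 0.13 ± 0.57 for Csn1s1, 0.11 ± 0.41 for Csn1s2a, -0.10 ± 0.19 for H2-K1, -0.12 ± 0.23 for B2m and -0.08 ± 0.17 for Pigr, none called. Slopes were above 0 in 16 of 26 interferon response genes, 9 of 28 MHC class I genes and 4 of 16 interferon-induced GTPases, beside 50.9% of all genes. Among milk genes Glycam1 had a slope of 1.89 ± 0.33, with an unadjusted p of 6.97e-06 and an adjusted p of 0.0639 in edgeR. Glycam1 was at 0 in 16 of the 20 regions, so this slope rests on few regions. Wap had a slope of 0.56 ± 0.22, with an unadjusted p of 0.0171 and an adjusted p of 0.999 in edgeR.

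High interferon scores also occurred at low Csn2. Of these 20 regions 5 reached or passed the interferon score of 5.09 that hyperplasia 46 had, the lowest of the high set, and none reached those of metastasis 42 and metastasis 58. Adenoma 36 was at 6.26 with 0.800 CPM of Csn2, carcinoma 06 at 6.25 with 0.109 CPM, carcinoma 39 at 5.71 with 40.1 CPM, carcinoma 08 at 5.48 with 31.0 CPM and carcinoma 54 at 5.34 with no Csn2 count. For the MHC class I list, 6 of the 20 regions reached or passed the lowest score of the high set. That score was 5.72 to 5.99 in the high set, against 6.81 in carcinoma 54 and 6.76 in adenoma 36. The GTPase score was 4.83 to 6.43 in the high set and 7.63 in adenoma 36. H2-K1 had a median of 2912 CPM over the carcinoma regions, and B2m reached 7374 CPM in adenoma. The casein score without Csn2 was 10.6, 6.93 and 6.62 in hyperplasia 46, metastasis 42 and metastasis 58 and at most 6.40 in any of the other 29 regions.

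**Figure D5:**
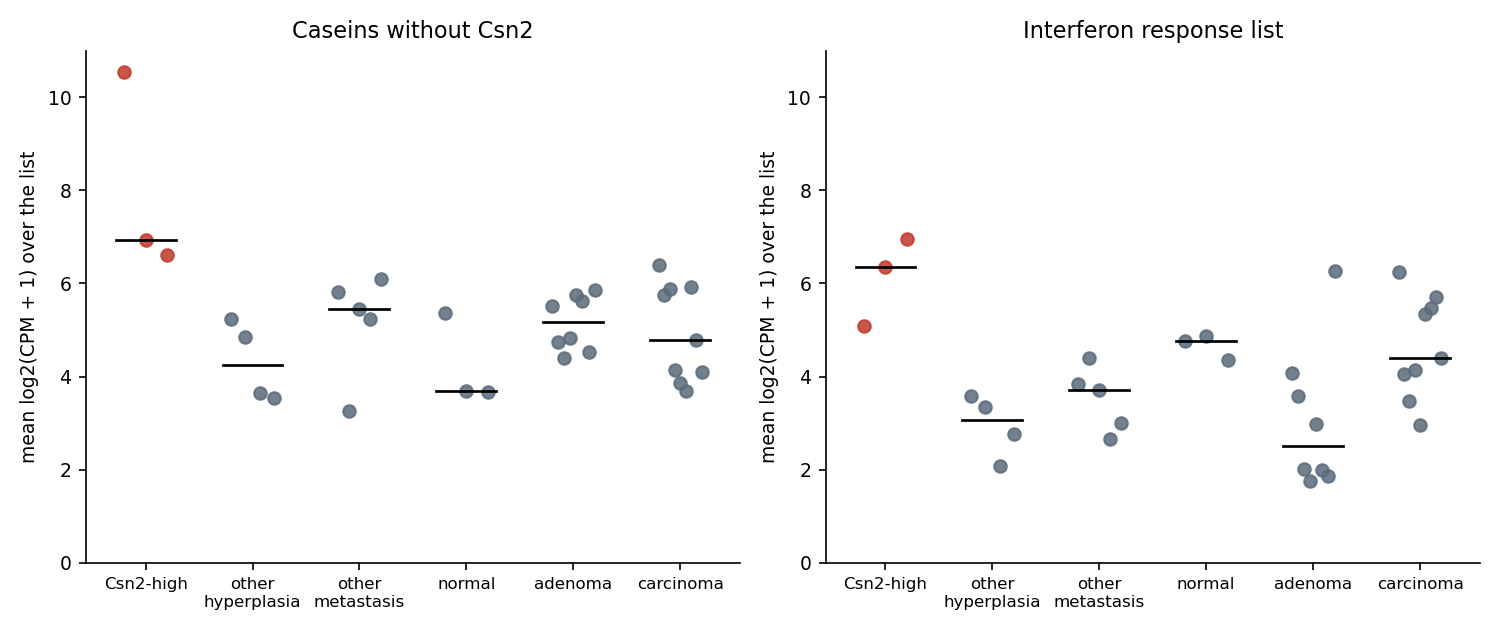
Mean log2(CPM + 1) over the 4 caseins other than Csn2 (left) and over the 26 interferon response genes (right) in all 32 libraries, with the Csn2-high libraries first and a bar at the median of each group. The casein score of the 3 high libraries exceeds that of every other library, while 5 adenoma and carcinoma libraries reach the lowest interferon score of the high set (5.09) and none reaches those of metastasis 42 and metastasis 58.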

How the data were processed

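RNA of 32 laser-captured regions was amplified from poly-A ends by a Smart-seq2 type protocol without molecular identifiers, per the labels' protocols. The part of amplification in the spread was not tested. Raw counts per gene ID were deposited by the authors in 1 table. STAR and mm10 are named in the submitters' processing notes, while strand setting and aligner parameters were not given in the sources used here. Of 24454 gene IDs 24374 matched a symbol in RefSeq tables and 23256 are autosomal. Total counts ran from 2688611 to 19585351 per region.

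Members and gene lists were chosen with earlier results of these data known, and the MHC class I and GTPase lists after values were seen. Counts were tested in R 4.3.3 with edgeR 4.0.16 (TMM, filterByExpr, quasi-likelihood F test, Benjamini-Hochberg, threshold 0.05), high against other regions with stage as covariate, over the whole table. DESeq2 1.42.0 and limma 3.58.1 voom were alternatives. Fits were also run on simulated data, and the outcome is not reported here. Standard errors are the log2 fold change over the square root of F. Scores are means of log2(CPM + 1), with a pseudocount of 1. Tables and figures used Python 3.11.15, pandas 2.3.3, numpy 2.4.6, scipy 1.17.1 and matplotlib 3.10.9. Named genes were the 12 of smallest p each way with a mean of at least 20 CPM in the higher set and enough counts, up to 4 of each list, and a fixed set of milk, hormone and epithelial genes. Members of the MHC class I and GTPase lists, and genes from limma voom calls, were named after their values were seen. X and Y genes were fitted and are not reported.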

Additional observations from a re-analysis of the deposited data

Results flagged for a closer look

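Of 110 groups of 4 or 5 regions examined for a single region far from the rest, 6 gave one. This is near the 1 in 20 that chance gives. Among the other hyperplasia regions, the gap of the extreme region took 0.964 of the group's range for 4930522H14Rik in hyperplasia 44 (9.33 CPM), 0.883 for Casz1 in hyperplasia 33 (25.3 CPM) and 0.843 for Prlr in hyperplasia 22 (4.43 CPM). Among the other metastases, it took 0.73 for S100a16 in metastasis 57 (41.2 CPM), 0.74 for Fasn in metastasis 57 (1024 CPM) and 0.806 for Xbp1, a factor of the unfolded protein response, in metastasis 40 (884 CPM).

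The effect of the high set differed between stages for Wfdc18, by -4.19 on the log2 scale (edgeR adjusted p = 1.39e-06), and for Scgb2b27, by -8.49 (edgeR adjusted p = 0.0287), metastasis minus hyperplasia.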

How the results depend on the processing

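High against other regions, the count of 0 called genes became 2 with library totals, 242 with DESeq2, 37 with limma voom, 132 with no filter beyond 1 count, 20 in metastasis alone, 4 in hyperplasia alone, 2 with detected genes as covariate and 5 with log2 Csn2 as a number. It was 0 to 22 when each region was left out, with 22 without hyperplasia 46, 7 without hyperplasia 22, 7 without hyperplasia 33 and 0 without metastasis 42 or metastasis 58. The 2 genes of the stage interaction became 1 with DESeq2 size factors and 0 with at least 10 counts in 3 libraries, and 1 to 31 with a region left out, with 31 without metastasis 02. The 1 gene of the Csn2 slope became 0 with limma voom, with a pseudocount of 0.1, with adenoma and carcinoma alone and with detected genes as covariate, and 0 to 2 with a region left out. Genes with all high regions above all others numbered 93, and 60 with library totals, 98 with DESeq2 size factors and 108 to 372 with a region left out. Genes with all below numbered 63, and 33 with library totals, 72 with DESeq2 size factors and 71 to 443 with a region left out. Leaving a region out cannot lower either count, so these rises follow from the rule. The fit in hyperplasia alone and the counts of sets that do not overlap under other settings were chosen after seeing the data. The cause of the other changes was not tested. No called result reversed, and the log2 fold change of Csn3, not called, had the opposite sign in 1 alternative. No paired analysis was possible because the numbers in the region names differ between all groups.

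With 1 high hyperplasia and 2 high metastases, values within a stage rest on few regions. The size of the casein differences depends on hyperplasia 46, as given beside them.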
